A study of Mus musculus with 26 samples.

Results

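Transcription factors of the Wolffian duct and of the epididymal epithelium were followed in the ArKI knock-in mouse line. The set has 8 members of the 23337 genes in the count tables. Pax2, Pax8, Lhx1, Emx2, Foxa1 and Foxa2 were taken as 6 known factors of the duct and its epithelium, and the other 2, Nkx6-1 and Sp6, were chosen by their strong change in the ArKI caput. The caput values of Nkx6-1 and Sp6, and everything computed from them, are therefore a description and were not tested. RNA-seq had been made from whole tissue of 3-month-old males on a C57Bl/6N; 129 hybrid background, in the initial segment (IS) and the caput epididymidis of 5 WT and 5 ArKI mice and in the testis of 3 WT and 3 ArKI mice. ArKI mice carry the knock-in allele in every cell, and the line was made from targeted embryonic stem cell clones. WT mice carried the unchanged allele, and the labels name no treatment.

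The epididymal duct is formed from the Wolffian duct, an embryonic tube that androgen maintains in males. Pax2 and Pax8, a pair of related paired-box factors, and Lhx1, a LIM homeodomain factor, are needed to build that tube, and Emx2, a homeodomain factor, is needed to keep its epithelium. Foxa1 and Foxa2 are forkhead factors that open chromatin. Nkx6-1 is a homeodomain factor best known from the insulin-producing beta cells of the pancreas and from the ventral spinal cord, and Sp6 (epiprofin) is a zinc finger factor best known from tooth and skin epithelium.

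Depth was 4125768 to 11913469 counts in the epididymal samples and 14077013 to 21376604 in the testis, and the shallowest library was ArKI caput replicate 2. The 9 epithelial markers summed to between 1986 and 2182 CPM (counts scaled to 1000000 per library) in all 20 epididymal samples and to at most 60.5 CPM in the testis. The 4 IS markers summed to 32566 to 36117 CPM in the WT IS, 24837 to 28534 CPM in the ArKI IS and at most 3730 CPM in the caput. Tissue labels and IS markers thus went together, although the IS sums of the genotypes did not overlap. The 3 genes listed as caput markers summed to 42865 to 50878 CPM in the WT IS and 62665 to 76160 CPM in the WT caput. In ArKI mice their sums overlapped between the segments, at 36848 to 60575 CPM in the IS and 44308 to 74346 CPM in the caput. In the sentences below, levels are CPM scaled by TMM, changes are log2 fold changes of ArKI over WT with their standard error (SE), and adjusted p-values come from edgeR's quasi-likelihood test over all genes of a comparison. A gene passed at an adjusted p below 0.05. In whole tissue, fewer cells of a type and less RNA per cell cannot be told apart.

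The promoters of Nkx6-1, Emx2 and Pax8 are shown as those of members that rose in ArKI mice and have 1 start in the table. The sequences are from RefSeq on build GRCm38.p6 and run 5′ to 3′ on the strand of the gene, from 250 bases before its annotated start to 50 bases after. Capitals mark exact matches on either strand to 4 searched words. These were GGGCGG, known as the GC box, then TATAAA, which marks some core promoters, then TAAACA, the core letters of a forkhead site, and last TAATTA, the core letters of a homeodomain site.
Nkx6-1 (chr5:101664662-101664961, minus strand): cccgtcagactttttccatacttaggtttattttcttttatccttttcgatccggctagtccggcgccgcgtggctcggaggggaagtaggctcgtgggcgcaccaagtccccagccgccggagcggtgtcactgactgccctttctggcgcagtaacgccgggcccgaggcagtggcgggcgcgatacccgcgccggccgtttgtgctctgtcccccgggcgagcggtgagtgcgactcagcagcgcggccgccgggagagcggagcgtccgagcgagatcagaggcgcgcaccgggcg
Emx2 (chr19:59458440-59458739, plus strand): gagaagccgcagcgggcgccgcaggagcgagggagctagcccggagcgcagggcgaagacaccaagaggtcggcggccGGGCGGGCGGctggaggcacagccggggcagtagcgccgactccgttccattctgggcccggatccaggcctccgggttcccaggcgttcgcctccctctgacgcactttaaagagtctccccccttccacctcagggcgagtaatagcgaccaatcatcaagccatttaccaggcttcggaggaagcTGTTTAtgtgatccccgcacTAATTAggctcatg
Pax8 (chr2:24475550-24475849, minus strand): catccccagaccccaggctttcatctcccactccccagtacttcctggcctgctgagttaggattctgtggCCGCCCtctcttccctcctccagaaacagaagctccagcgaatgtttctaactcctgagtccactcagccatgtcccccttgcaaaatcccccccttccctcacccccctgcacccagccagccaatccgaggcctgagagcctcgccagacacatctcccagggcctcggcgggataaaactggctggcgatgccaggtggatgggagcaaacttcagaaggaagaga

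The Nkx6-1 window held none of the 4 words, 67.3% G or C and 40 CG pairs, against a median of 52.7% and 7 CG pairs over all 32851 promoters of the table. The Emx2 window held a pair of overlapping GC boxes at -172 and -168, a forkhead core read on the other strand at +17 and a homeodomain core at +37, with 64.3% G or C and 26 CG pairs. The Pax8 window held 1 GC box, read on the other strand at -179, with 59.3% G or C and 7 CG pairs. GC boxes occurred in 35.7% of all promoters, forkhead cores in 13.4%, homeodomain cores in 5.29% and TATAAA in 13.6%. A match is a match of letters and not a measured binding site, and a window without one says only that these letters are not in it.

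In the IS, 3 members rose in ArKI mice and none fell. Nkx6-1 rose 17.1-fold, Pax2 1.61-fold and Emx2 1.57-fold, and in all 3 every ArKI sample lay above every WT sample. Of the 8 members, 6 had enough counts for the fit. Nkx6-1 had been chosen by its rise in the caput of the same mice and entered the IS fit through its ArKI counts, so its rise adds nothing to a count of members. Of the 4 tested factors not chosen by their caput values, 2 rose. Among all 13434 genes tested in the IS 15.0% rose and 14.6% fell, so about as many genes moved in either direction. Groups that did not overlap were seen in 20.1% of all genes. Of the 4 IS markers 3 fell in the same samples, Lcn8 by 0.47 (SE 0.06, adjusted p = 3.8e-06), Lcn9 by 0.40 and Rnase10 by 0.32. None of the 3 genes listed as caput markers rose, but only Lcn5 clearly separated the WT segments. Lcn5 was at 83.4 CPM in the WT IS and 15468 CPM in the WT caput, and its change did not pass (adjusted p = 0.23). Gpx5, at 44254 and 53669 CPM, did not pass either (adjusted p = 0.38). Crisp1 was higher in the WT IS, 2087 against 385 CPM in the WT caput, so it did not mark the caput here. It fell by 2.58 (SE 0.23, adjusted p = 5.8e-05). The part of these marker changes in the rise of Pax2 and Emx2 was not tested. None of the 4 factors not chosen by their caput values reached the limits used in the study for the epididymis (FDR below 0.01 with more than a 2-fold change), which 4.04% of all genes reached.

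Nkx6-1 (chromosome 5, 101659184 to 101664711, minus strand) was nearly silent in the WT epididymis. In the WT IS its level was 0.959, 1.60, 1.24, 0.424 and 1.67 CPM in replicates 1 to 5, from 3 to 16 counts a sample. In the ArKI IS it was 22.5, 18.5, 25.8, 21.5 and 16.5 CPM, from 127 to 182 counts. Even the lowest ArKI sample lay far above the highest WT sample. The log2 fold change was 4.09 (SE 0.21, adjusted p = 4.0e-11, n = 5 per group). With every gene of at least 1 count kept, so that the filter on low counts did not admit it, the change was 4.09 with an adjusted p of 4.2e-15, and over all alternatives the adjusted p ran from 1.4e-57 to 1.3e-07. The IS and the caput that chose the gene came from the same mice, so this is not a test in independent animals. Over the pooled counts, 752 in ArKI against 51 in WT, the ratio was 17.0, with a 95% exact interval of 12.8 to 23.1 that, like the other intervals here, covers counting error only.

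In the caput, whose values chose this gene, Nkx6-1 was at 0.207, 0, 0.352, 0 and 0.236 CPM in the WT samples, 0 to 3 counts each. The ArKI caput samples had 19.0, 16.2, 15.6, 20.2 and 14.3 CPM, 73 to 236 counts each. The pooled counts were 813 in ArKI and 7 in WT, a ratio of 107. The ArKI IS and ArKI caput samples overlapped with each other, while the WT samples of both segments stayed at or below 1.67 CPM.

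In the testis, which the choice had not used, Nkx6-1 was at 2.16, 2.73 and 2.35 CPM in WT and at 2.63, 1.65 and 2.77 CPM in ArKI mice, so that the groups overlapped, with a log2 fold change of -0.06 (SE 0.23, adjusted p = 0.95). The WT testis therefore held more Nkx6-1 in CPM than either WT segment, although testis and epididymis were sequenced in separate runs and this order was not tested.

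**Figure D1:**
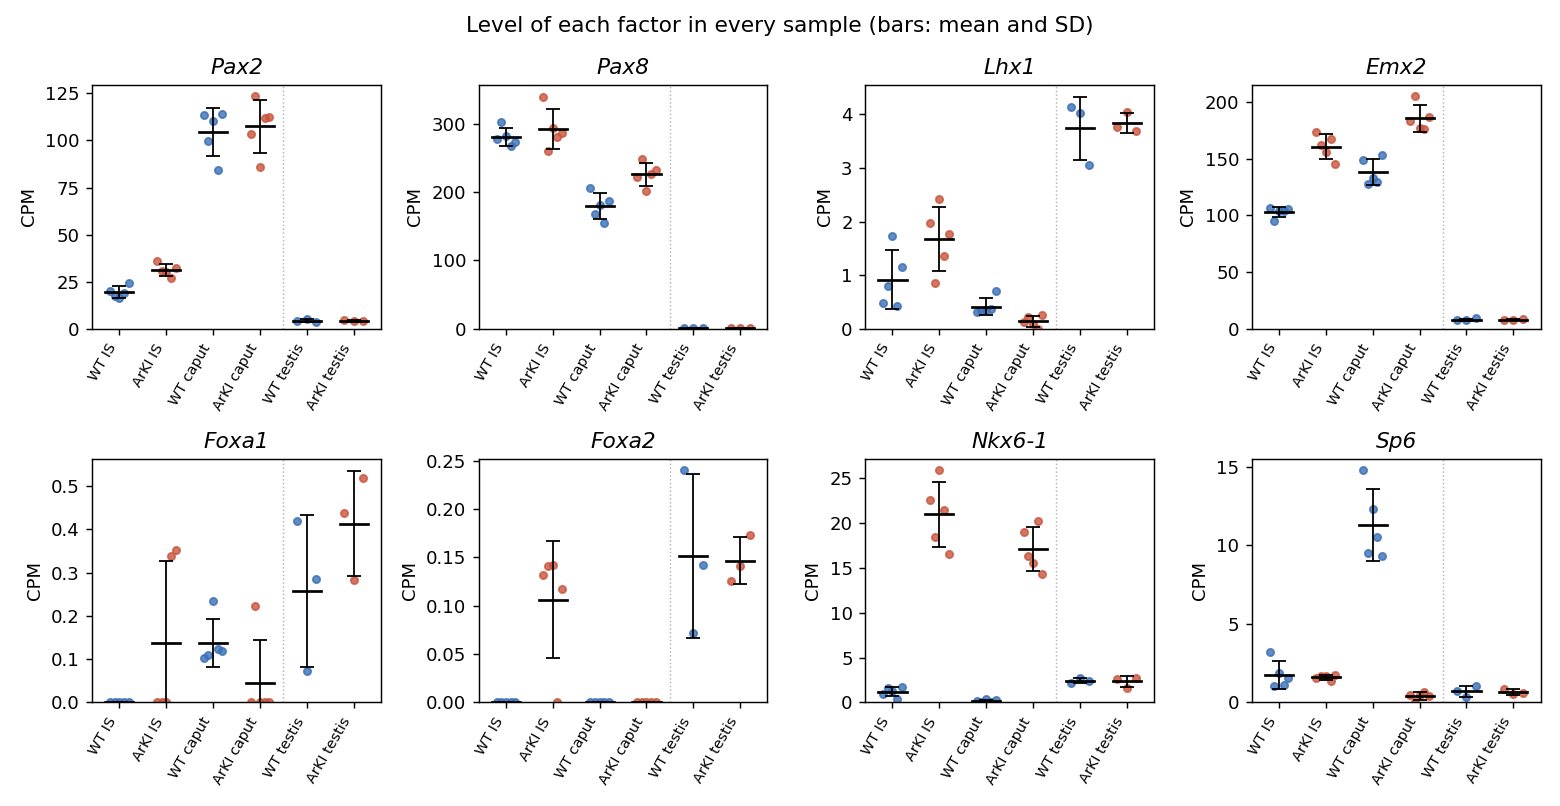
Level of each of the 8 factors in every sample, in CPM on linear axes that start at 0 and differ between panels, with WT in blue, ArKI in red, and the mean and SD of each group as black bars (n = 5 in IS and caput, n = 3 in testis). Nkx6-1 stands at 16.5 CPM or more in every ArKI IS sample and at 14.3 CPM or more in every ArKI caput sample, while Sp6 is high in the WT caput samples only, at 9.32 CPM or more.

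The genes whose levels most resembled that of Nkx6-1 over the 20 epididymal samples were Lyve1 (Pearson r = 0.981), Darc (0.974) and Mmrn1 (0.972), of 13821 genes compared. The samples share their libraries and fall into 4 groups, so these values describe likeness and carry no p. Lyve1 and Mmrn1 are known as markers of lymphatic endothelium, and Darc as a receptor of venous endothelium. Lyve1 was at 6.03 ± 0.92 CPM in the WT IS and 22.3 ± 2.65 CPM in the ArKI IS (mean ± SD, n = 5), and at 4.35 ± 0.66 and 19.4 ± 2.74 CPM in the caput. Other endothelial genes were looked at only after Lyve1 had been seen, and without a test. The lymphatic factor Prox1 was at 0.53 ± 0.17 CPM in the WT IS and 1.53 ± 0.29 CPM in the ArKI IS, and the lymphatic receptor Flt4 was at 10.6 ± 1.95 and 18.1 ± 2.28 CPM. In the caput Prox1 was at 0.51 ± 0.20 CPM in WT and 1.77 ± 0.86 CPM in ArKI mice, and Flt4 at 4.59 ± 0.71 and 17.9 ± 2.55 CPM. Pdpn, which lymphatic endothelium shares with other cells, was at 114 ± 4.61 CPM in the WT IS and 102 ± 7.70 CPM in the ArKI IS, and at 33.1 ± 4.58 and 34.0 ± 2.65 CPM in the caput. The general endothelial gene Pecam1 was at 31.5 ± 2.98 CPM in the WT IS and 24.3 ± 3.66 CPM in the ArKI IS, and at 13.8 ± 0.97 and 18.7 ± 2.88 CPM in the caput. Cdh5, another, was at 24.4 ± 3.49 and 17.5 ± 1.97 CPM in the IS and at 15.3 ± 1.97 and 15.2 ± 2.32 CPM in the caput. What part endothelial cells had in the Nkx6-1 counts was not tested.

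Among islet and neuroendocrine genes, with which Nkx6-1 is known to act, 23 had too few counts for the fit in both segments, at most 16 in any epididymal sample. Pdx1, Neurod1, Neurog3, Pax4, Pax6, Insm1, Mnx1, Ptf1a, Ucn3, Slc30a8, Ins1 and Ins2 had 0 counts in every epididymal sample, which allows up to 3 counts a library. Of the nearest relatives of Nkx6-1, Nkx6-3 had 0 counts and Nkx6-2 at most 2 counts in any epididymal sample.

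Emx2 (chromosome 19, 59458690 to 59465357, plus strand) was the one member that rose in both segments by a test its choice had not used. In the IS it was at 106, 95.2, 103, 104 and 106 CPM in WT and at 173, 162, 156, 167 and 145 CPM in ArKI samples. The groups lay far apart, and the log2 fold change was 0.65 (SE 0.05, adjusted p = 1.6e-08). In the caput Emx2 was at 148, 128, 133, 129 and 153 CPM in WT and at 183, 205, 177, 176 and 187 CPM in ArKI samples. These groups did not overlap either, and the log2 fold change was 0.44 (SE 0.06, adjusted p = 6.2e-05). The difference between the segments in this change was -0.21 (SE 0.08, adjusted p = 0.092) and did not pass. In the testis Emx2 was low in both genotypes, 8.07 ± 0.90 CPM in WT and 7.91 ± 0.60 CPM in ArKI (SD, n = 3).

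Emx2os, an antisense RNA that starts beside Emx2 and runs the other way, was measured at 7.68 ± 0.94 CPM in the WT IS and 9.29 ± 0.41 CPM in the ArKI IS, with a log2 fold change of 0.28 (SE 0.12, adjusted p = 0.097). In the caput it rose from 12.5 ± 1.64 to 19.2 ± 3.64 CPM, by 0.60 (SE 0.13, adjusted p = 0.0021). The annotated genes do not overlap, but their starts are close. The strand setting of the counting is not given in the sources used here, so reads near these starts may not have been told apart. Emx2 itself was at 103 ± 4.50 CPM in the WT IS and 138 ± 11.5 CPM in the WT caput, far above Emx2os. The genes most like Emx2 over the epididymal samples were Epb4.1l3 (r = 0.969), Ripk3 (r = 0.961) and Golm1 (r = 0.940).

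Pax2 and Pax8 are held to stand in for each other in the developing duct, and in the adult epididymis they were unequal in level and in pattern. Pax8 (chromosome 2, 24420551 to 24475599, minus strand) was higher in the IS than in the caput, and Pax2 (chromosome 19, 44746601 to 44838269, plus strand) was higher in the caput than in the IS. In WT mice Pax2 was 5.30-fold higher in the caput (log2 difference 2.41, SE 0.12, adjusted p = 2.9e-13) and Pax8 was 1.58-fold lower (log2 difference -0.66, SE 0.07, adjusted p = 1.9e-08). In ArKI mice both differences had the same sign and were 1.77 (SE 0.12, adjusted p = 2.5e-11) for Pax2 and -0.37 (SE 0.07, adjusted p = 8.0e-05) for Pax8.

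Between genotypes, Pax2 rose in the IS and Pax8 in the caput. Pax2 was at 20.02, 17.5, 16.3, 18.9 and 24.5 CPM in the WT IS and at 36.1, 30.9, 29.9, 26.7 and 32.3 CPM in the ArKI IS. All ArKI samples were above all WT samples, with a log2 fold change of 0.69 (SE 0.10, adjusted p = 4.9e-05). In the caput Pax2 was at 114, 99.5, 110, 84.1 and 114 CPM in WT and 103, 123, 85.9, 112 and 113 CPM in ArKI. The groups overlapped over most of their range, and the log2 fold change was 0.06 (SE 0.11, adjusted p = 0.77). The genotype effect on Pax2 was smaller in the caput than in the IS by 0.64 (SE 0.17, adjusted p = 0.013).

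Pax8 was at 278, 303, 283, 268 and 274 CPM in the WT IS and 340, 260, 295, 281 and 287 CPM in the ArKI IS, with a log2 fold change of 0.06 (SE 0.06, adjusted p = 0.48). One ArKI sample lay above and another below all WT samples. In the caput Pax8 was at 206, 169, 181, 155 and 188 CPM in WT and at 222, 249, 202, 227 and 232 CPM in ArKI. Only ArKI replicate 3 fell within the WT range, and Pax8 rose by 0.35 (SE 0.08, adjusted p = 0.0027). The test of the difference between segments gave 0.28 (SE 0.10, adjusted p = 0.064), so the Pax8 effects are not shown to differ between IS and caput.

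Per length of transcript, Pax8 exceeded Pax2 in every epididymal sample. As a share of the summed Pax2 and Pax8 RPKM (CPM per kilobase of exon), Pax2 made up 3.84% ± 0.69 in the WT IS and 5.79% ± 0.47 in the ArKI IS (SD, n = 5). In the caput the share was 25.03% ± 0.98 in WT and 21.4% ± 1.04 in ArKI. The shares did not overlap between genotypes in either segment, and they moved in opposite directions, up in the IS and down in the caput. In the testis, where both genes were low, Pax2 made up 85.01% ± 0.50 in WT and 71.5% ± 4.77 in ArKI (SD, n = 3). These testis shares rest on 5 to 7 Pax8 counts a sample in WT and 12 to 23 in ArKI. Counting error is not in these SDs as such, and nothing is read from the difference. Genes most like Pax2 over the epididymal samples were Mthfd1l (r = 0.993), the AP-2 factor Tfap2b (r = 0.989) and Pdzk1ip1 (r = 0.988), and those most like Pax8 were Snx18 (r = 0.954), Olfr1338 (r = 0.947) and Elovl1 (r = 0.946).

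**Figure D2:**
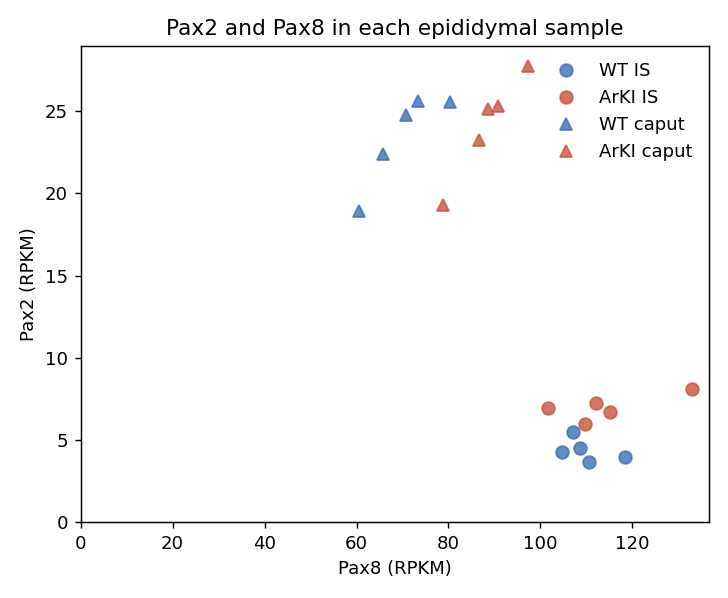
Pax2 against Pax8 in each of the 20 epididymal samples, in RPKM on linear axes that start at 0, with circles for the IS, triangles for the caput, WT in blue and ArKI in red. The IS samples lie at high Pax8 and low Pax2, ArKI above WT along the Pax2 axis, and the caput samples lie at higher Pax2, with ArKI to the right of WT along the Pax8 axis apart from the highest WT sample, which exceeds the lowest ArKI sample.

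Of the 6 factors not chosen by their caput values, 3 had enough counts for the caput fit. Pax8 and Emx2 rose and none fell, against 13.7% of all 13726 genes that rose and 14.0% that fell in the caput. None of the 3 reached the limits of the study, which 4.98% of all genes reached, and 1 of the 3, Emx2, had groups that did not overlap, against 19.9% of all genes. Epithelial markers moved in the caput as well. Their sum was 1986 to 2040 CPM in WT and 2122 to 2182 CPM in ArKI, without overlap, and of the 9 markers 3 rose and 1 fell. Epcam, which encodes a cell adhesion molecule of epithelia, rose by 0.32 (SE 0.05, adjusted p = 0.00013), Cdh1, the gene of E-cadherin, by 0.31 (SE 0.06, adjusted p = 0.00047) and the keratin gene Krt18 by 0.21 (SE 0.05, adjusted p = 0.0063), while Krt19 fell by 0.29 (SE 0.06, adjusted p = 0.0012). The part of the epithelial share in the rise of Pax8 and Emx2 was not tested.

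Sp6 (chromosome 11, 97013569 to 97024739, plus strand) was a gene of the WT caput. Its level there, one of the values that chose it, was 14.8, 9.54, 12.3, 10.5 and 9.32 CPM, from 79 to 143 counts. In the ArKI caput it was 0.480, 0, 0.447, 0.686 and 0.416 CPM, from 0 to 8 counts. The pooled counts, 22 in ArKI and 500 in WT, gave a 24.7-fold lower level. In the IS, which the choice did not use, Sp6 was at 3.24, 1.03, 1.86, 1.13 and 1.56 CPM in WT and at 1.58, 1.69, 1.70, 1.35 and 1.76 CPM in ArKI. The ArKI samples all lay inside the WT range, and the log2 fold change was -0.12 (SE 0.31, adjusted p = 0.82). With no sample above 0.686 CPM, the ArKI caput lay below every IS sample of either genotype.

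In the testis Sp6 was at 0.720, 0.359 and 1.07 CPM in WT and 0.877, 0.565 and 0.577 CPM in ArKI, with overlapping groups (log2 fold change -0.11, SE 0.39, adjusted p = 0.94). Transcripts of late spermatids and sperm were lower in the ArKI caput too. The 10 sperm markers summed to 237 to 368 CPM in the WT caput and 36.7 to 101 CPM in the ArKI caput, and 8 of the 9 tested fell. The part of these cells in the Sp6 values was not tested. The genes most like Sp6 over the epididymal samples were the myosin light chain kinase gene Mylk2 (r = 0.948), 1500009L16Rik (r = 0.931) and the T-type calcium channel gene Cacna1h (r = 0.925). On average Cacna1h was at 43.9 CPM in the WT caput and 6.70 CPM in the ArKI caput, and at 13.0 and 14.0 CPM in the WT and ArKI IS.

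Of 21 tooth and ectodermal genes, among which Sp6 is best known, 3 rose and 1 fell of the 11 tested in the caput (median of the log2 fold changes 0.12, against 0.00 over all genes), where 13.7% of all genes rose and 14.0% fell. Wnt10a, a Wnt ligand, rose by 1.35 (SE 0.21, adjusted p = 0.00013), and Eda and Edar, the ectodysplasin ligand and its receptor, rose by 0.79 (SE 0.17, adjusted p = 0.0018) and 0.72 (SE 0.12, adjusted p = 0.00016). Odam, an enamel-associated gene, fell by 0.72 (SE 0.24, adjusted p = 0.032). In the IS, where 15.0% of all genes rose and 14.6% fell, 1 rose and 3 fell of 10 tested, with a median of -0.29. Edar rose by 0.91 (SE 0.16, adjusted p = 0.00025), while Krt5, Bcl11b and Trp63 fell by 0.66 (SE 0.10, adjusted p = 0.00039), 0.61 (SE 0.21, adjusted p = 0.032) and 0.18 (SE 0.06, adjusted p = 0.017). Krt5 and Trp63 are also markers of epididymal basal cells, whose 4 markers summed to 291 to 331 CPM in the WT IS and 242 to 267 CPM in the ArKI IS. In the testis 1 of 7 passed, Wnt10a, with a mean of 1.99 CPM in ArKI and 0.11 CPM in WT, where 1.64% of all genes rose and 0.328% fell. Wnt10a passed the filter on low counts through the ArKI samples alone, so nothing is read from this count. The enamel matrix genes Amelx, Ambn and Enam had at most 1 count in any epididymal sample.

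Lhx1 (chromosome 11, 84517975 to 84525534, minus strand) was low in the epididymis and differed between the segments. In the IS it was at 0.479, 0.802, 1.74, 0.424 and 1.15 CPM in WT and 1.98, 0.845, 2.41, 1.35 and 1.76 CPM in ArKI, 3 to 17 counts a sample. The groups overlapped, and the log2 fold change of 0.85 did not pass (SE 0.37, adjusted p = 0.091). Without WT replicate 3 the change was 1.18 with an adjusted p of 0.028, and without ArKI replicate 2 it was 1.02 with an adjusted p of 0.038, while over all alternatives the adjusted p ran from 0.028 to 0.20.

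In the caput Lhx1 was at 0.310, 0.329, 0.352, 0.368 and 0.708 CPM in WT, 3 to 6 counts a sample, and at 0.120, 0.222, 0.0894, 0 and 0.249 CPM in ArKI, 0 to 3 counts. Every ArKI sample was below every WT sample. The gene was too low for the fit, and a two-sided exact permutation test of log2(CPM + 0.5) gave a difference of -0.52 with p = 0.0079, the smallest that 5 against 5 allows, and p = 0.048 after adjustment over the 6 such tests. On the pooled counts, 6 against 18, Lhx1 was 3.26-fold lower, with a counting interval of 1.24 to 10.02. In the testis, which was sequenced apart, Lhx1 was at 3.74 ± 0.59 CPM in WT and 3.83 ± 0.19 CPM in ArKI (SD, n = 3), with a log2 fold change of 0.03 (SE 0.17, adjusted p = 0.96).

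Lhx1os, an antisense RNA whose annotated start at 84525660 lies upstream of that of Lhx1 and which runs the other way, was low in the epididymis too. In each group its mean lay below that of Lhx1, and in the testis far below, at 0.09 CPM in WT and 0.21 CPM in ArKI. Lhx1os was at 0.78 ± 0.37 CPM in the WT IS, 0.94 ± 0.66 CPM in the ArKI IS, 0.18 ± 0.20 CPM in the WT caput and 0.02 ± 0.05 CPM in the ArKI caput (SD, n = 5). The annotated genes do not overlap, but without the strand setting reads between them cannot be assigned to one of the pair.

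The WT caput held 2.24-fold less Lhx1 than the WT IS (log2 difference -1.16, SE 0.45, adjusted p = 0.025), and the ArKI caput less than the ArKI IS by a fitted log2 difference of -3.60 (SE 0.51, adjusted p = 7.6e-07). Lhx1 passed the filter on low counts through its IS samples alone. With every gene of at least 1 count kept, the adjusted p was 0.033 in WT and 3.1e-07 in ArKI mice. With 6 counts in the 5 ArKI caput samples the fitted size depends on the prior count, and the pooled counts gave a 13.4-fold lower level with an interval of 5.82 to 37.9. The test of the difference between these was -2.44 (SE 0.75, adjusted p = 0.026). The adjusted p was 0.030 with every gene of at least 1 count kept. At 0 to 17 counts a sample the call rested on single libraries. Without WT caput replicate 5 the difference was -2.18 with an adjusted p of 0.071, without ArKI caput replicate 4 it was -2.08 with an adjusted p of 0.060, and over all alternatives the adjusted p ran from 0.011 to 0.071. The WT segment difference was also lost without WT IS replicate 3 (-0.82, adjusted p = 0.13) or replicate 5 (-1.06, adjusted p = 0.061), and without WT caput replicate 1 (-1.06, adjusted p = 0.057) or replicate 2 (-1.08, adjusted p = 0.054), with a range of 0.013 to 0.13 over all alternatives.

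The IS and caput of a genotype came from the same 5 mice, but the labels do not say which IS and caput samples belong together, so they were fitted as separate samples. Among the factors tested between segments, Pax2 and Emx2 were higher and Pax8 lower in the caput, in WT and in ArKI mice alike. Lhx1 was lower as well, but it entered this fit through its IS counts alone and is left out of any count. In WT mice 34.4% of all 14329 genes were higher and 35.0% lower in the caput, and in ArKI mice 33.0% were higher and 33.2% lower. Emx2 was higher in the caput by 0.42 in WT (SE 0.06, adjusted p = 9.3e-07) and by 0.20 in ArKI mice (SE 0.06, adjusted p = 0.0038). Pax2 and Lhx1 passed the test of a difference in genotype effect between segments, as did 15.1% of all genes, and nothing is read from this count because Lhx1 was tested only through its IS counts.

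Foxa1 and Foxa2 were at the limit of detection. Foxa1 had 0 counts in every WT IS sample, 0, 0, 0, 2 and 3 counts in the ArKI IS, 1, 1, 2, 1 and 1 counts in the WT caput and 0, 1, 0, 0 and 0 counts in the ArKI caput. Foxa2 had 0 counts in all WT IS samples, 1, 1, 1, 0 and 1 counts in the ArKI IS and 0 counts in all 10 caput samples. In the testis Foxa1 had 1 to 9 counts and Foxa2 1 to 4 counts a sample. Neither gene passed the exact permutation test with adjustment in any tissue, the lowest being p = 0.048 for Foxa2 in the IS and p = 0.040 for Foxa1 in the caput, both 0.095 after adjustment. With 3 against 3 in the testis no p below 0.10 could be reached, and the values were 0.30 for Foxa1 and 0.90 for Foxa2.

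In the testis 6 of the 8 members had enough counts for the fit, and none passed, against 1.64% of all 15838 genes that rose and 0.328% that fell. Pax8 was at 0.420, 0.502 and 0.355 CPM in WT and at 1.13, 1.08 and 0.692 CPM in ArKI testes, 5 to 7 counts against 12 to 23 counts. The groups did not overlap, as for 17.8% of all genes, and the log2 fold change was 1.17 (SE 0.37, adjusted p = 0.13). Pax8 passed the filter on low counts through the ArKI samples alone, and with every gene of at least 1 count kept the adjusted p was 0.12. These values lie within the looser limits that the study used for the testis, FDR below 0.2 with more than a 2-fold change, which 0.833% of all genes met, but nothing is read from that for a gene so admitted. The adjusted p ran from 0.083 to 0.47 over 12 alternatives and stayed below 0.2 in 7 of them. It was 0.47 by DESeq2, 0.27 without WT replicate 1, 0.43 without WT replicate 3, 0.33 without ArKI replicate 1 and 0.34 without ArKI replicate 2. Pax2 was at 4.20 ± 0.80 CPM in WT and 4.18 ± 0.40 CPM in ArKI testes.

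**Figure D3:**
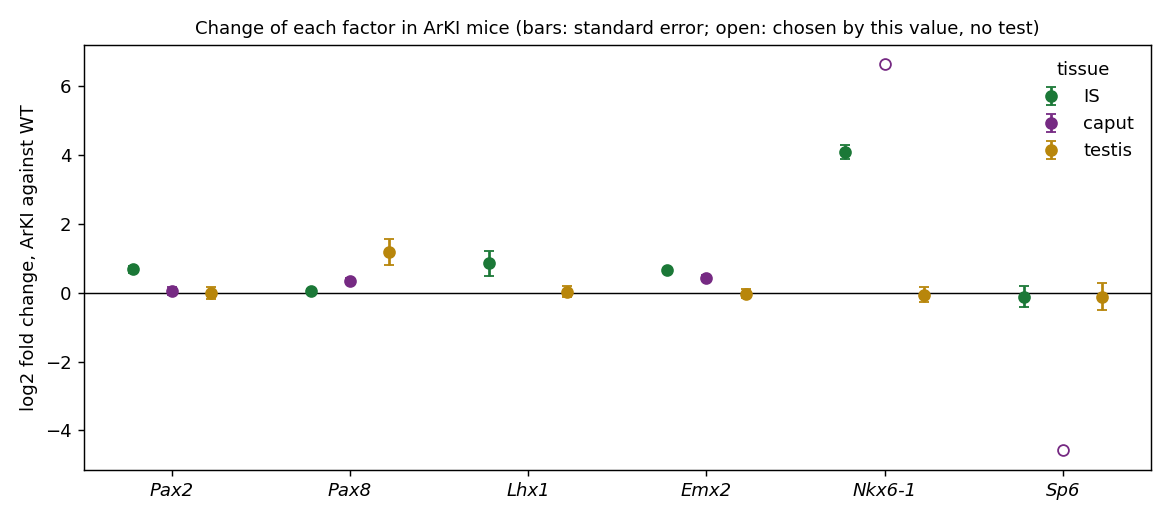
Log2 fold change of ArKI over WT for the 6 factors with enough counts, in the IS (green), the caput (purple) and the testis (gold), with the standard error of the fit as bars. Open circles are the caput values that chose Nkx6-1 (6.64) and Sp6 (-4.58) and have no error or test, with a size that depends on the prior count because 1 group has few counts, and Lhx1 has no caput value because it was too low for the fit.

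Per length of transcript, Pax8, Emx2 and Pax2 stood in this order at the top in the WT epididymis, and in another order in the testis. In the WT IS Pax8 stood at 110 ± 5.20 RPKM, Emx2 at 35.3 ± 1.54 and Pax2 at 4.37 ± 0.71 (SD, n = 5), each apart from the next in every sample. Below them, Sp6 at 0.46 ± 0.23, Nkx6-1 at 0.38 ± 0.16 and Lhx1 at 0.24 ± 0.14 RPKM did not differ beyond their spread. In the ArKI IS Nkx6-1 had moved up beside Pax2, 6.68 ± 1.15 against 7.02 ± 0.77 RPKM, which did not differ beyond their spread. In the WT caput the order was Pax8 at 70.2 ± 7.53, Emx2 at 47.4 ± 3.94, Pax2 at 23.5 ± 2.86 and Sp6 at 2.94 ± 0.59 RPKM. In the ArKI caput Nkx6-1 took the place below Pax2 with 5.44 ± 0.79 RPKM, and Sp6 stood at 0.11 ± 0.07 RPKM. In the WT testis Emx2 led with 2.77 ± 0.31 RPKM, Lhx1, Pax2 and Nkx6-1 followed at 0.96 ± 0.15, 0.94 ± 0.18 and 0.77 ± 0.09 RPKM (SD, n = 3), and Pax8 stood at 0.17 ± 0.03 RPKM.

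Among 20 partners of these factors in the Wolffian duct, changes went in both directions. In the IS 5 rose and 4 fell of 17 tested, with a median log2 fold change of 0.05 against 0.00 over all genes, of which 15.0% rose and 14.6% fell. The largest rises were Wt1 by 1.31 (SE 0.38, adjusted p = 0.013), Sall1 by 1.08 (SE 0.22, adjusted p = 0.0021) and Sim1 by 0.96 (SE 0.10, adjusted p = 9.7e-07), all transcription factors. Wt1 was near the floor, at 0.79 ± 0.49 CPM in WT and 1.98 ± 0.78 CPM in ArKI. Its groups overlapped, as did those of Sall1. The largest falls were in Inhba, which encodes an activin subunit, by 1.24 (SE 0.28, adjusted p = 0.0023), and in the transcription factors Gata2 by 1.05 (SE 0.15, adjusted p = 2.7e-05) and Osr2 by 0.87 (SE 0.16, adjusted p = 0.00028). In the caput, where the median was -0.04, Tfcp2l1 alone rose, by 0.39 (SE 0.06, adjusted p = 0.0001), and 3 of 16 fell, beside 13.7% and 14.0% of all genes. These were Osr2 by 0.78 (SE 0.12, adjusted p = 0.00015), Gata2 by 0.64 (SE 0.15, adjusted p = 0.0046) and the R-spondin receptor gene Lgr4 by 0.18 (SE 0.06, adjusted p = 0.039). None of 17 passed in the testis.

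Among 20 factors of adult epithelia, 5 rose and 6 fell of 18 tested in the IS, with a median of -0.08, beside the 15.0% and 14.6% of all genes that rose and fell. Ovol1 rose by 0.78 (SE 0.22, adjusted p = 0.011), the Ets factor Elf3 by 0.59 (SE 0.08, adjusted p = 7.2e-05) and Nfia by 0.52 (SE 0.09, adjusted p = 0.00011). Klf4 fell by 0.41 (SE 0.12, adjusted p = 0.016), Etv4 by 0.40 (SE 0.07, adjusted p = 0.00022) and Runx1 by 0.28 (SE 0.05, adjusted p = 0.00022). In the caput 2 rose and 4 fell of 19, with a median of -0.04, beside 13.7% and 14.0% of all genes. Elf3 rose by 0.73 (SE 0.06, adjusted p = 7.9e-08) and Tfap2c by 0.53 (SE 0.12, adjusted p = 0.0021). Spdef, another Ets factor, fell by 1.91 (SE 0.23, adjusted p = 8.6e-06), Elf5 by 0.56 (SE 0.13, adjusted p = 0.0032) and Runx1 by 0.51 (SE 0.10, adjusted p = 0.00093). None of 17 passed in the testis.

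Of 26 relatives of the members in the same gene families, 6 were high enough to test in the IS, 7 in the caput and 16 in the testis. Sp5, a relative of Sp6, rose in both segments, by 1.18 in the IS (SE 0.42), where it only just passed and its groups overlapped, and by 0.60 in the caput (SE 0.18, adjusted p = 0.016). Sp3 rose by 0.19 in the IS (SE 0.05, adjusted p = 0.0049). Sp1, Sp2 and Sp4 did not pass in either segment. In all 2 of 6 rose in the IS, beside 15.0% of all genes, and 1 of 7 in the caput, beside 13.7%. No relative fell in either segment, where 14.6% and 14.0% of all genes fell, and none of 16 passed in the testis, where 1.64% of all genes rose and 0.328% fell. The median of the relatives was 0.14 in the IS, -0.03 in the caput and -0.09 in the testis, against 0.00 over all genes in each.

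**Figure D4:**
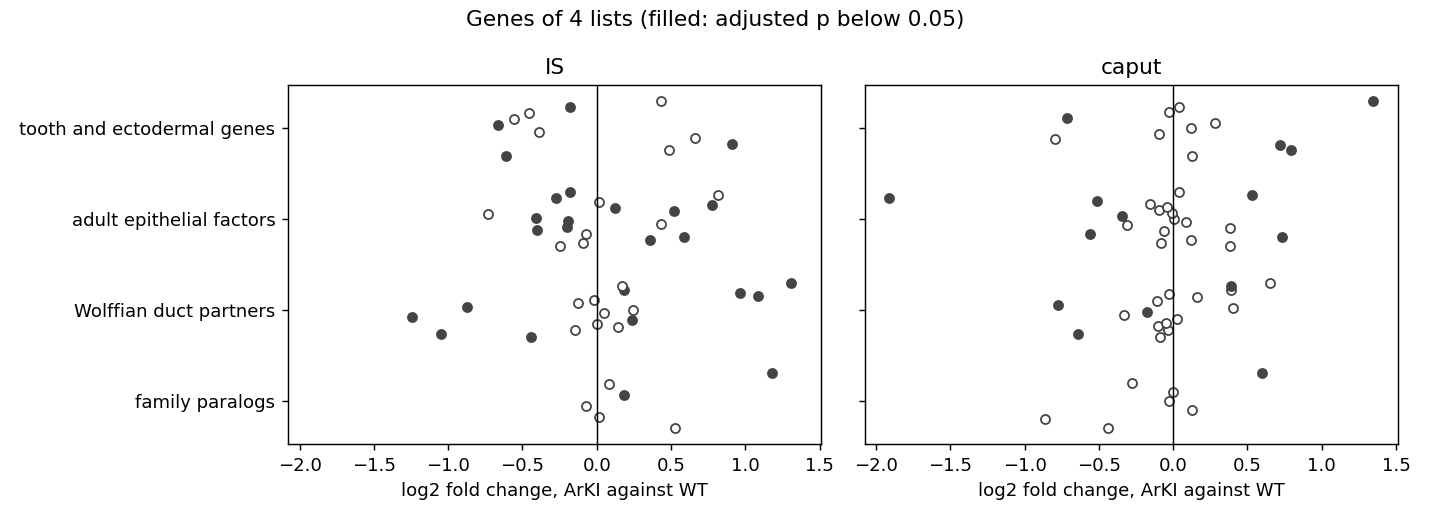
Log2 fold change of ArKI over WT for each tested gene of 4 lists (family paralogs, Wolffian duct partners, adult epithelial factors, tooth and ectodermal genes), in the IS at left and the caput at right, 1 circle a gene, filled where the adjusted p was below 0.05. Filled circles lie on both sides of 0 for the Wolffian duct partners and the adult epithelial factors in both segments.

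Some markers of other cells differed between the genotypes beside the members. Of the 6 efferent duct markers tested, Foxj1, Lrp2 and Esr1 rose and Ccno fell in the IS, and their sum was 273 to 327 CPM in WT and 288 to 667 CPM in ArKI samples, highest in ArKI IS replicate 3. Foxj1 rose by 1.31 (SE 0.33, adjusted p = 0.018) and Lrp2 by 1.43 (SE 0.39, adjusted p = 0.027). In the caput Aqp1 rose by 0.91 (SE 0.08, adjusted p = 3.2e-07) and Esr1 by 0.65 (SE 0.10, adjusted p = 0.00023) of 5 efferent duct markers tested, and the sum was 224 to 244 CPM in WT and 249 to 279 CPM in ArKI, without overlap.

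Smooth muscle markers were lower in the ArKI IS, where 5 of 6 fell and none rose. Acta2, the gene of smooth muscle actin, fell by 0.93 (SE 0.16, adjusted p = 0.0025), and Myh11, the smooth muscle myosin gene, by 1.03 (SE 0.15, adjusted p = 0.00097). Tagln fell by 0.98, Cnn1 by 1.10 and Des by 0.79. The sum of the 6 was 3467 to 3749 CPM in WT and 2898 to 3446 CPM in ArKI. Most of that sum was Actg2, at a mean of 3069 CPM in the WT IS, which did not pass (adjusted p = 0.18). In the caput none of the 6 passed. Of 6 fibroblast markers, 4 rose and 1 fell in the IS, and in the caput their sum was 821 to 961 CPM in WT and 961 to 2253 CPM in ArKI, highest in the shallow ArKI caput replicate 2. The Pax8 change in the caput was 0.31 (adjusted p = 0.0033) without that library and 0.35 with it. The part of these cells in the changes of the members was not tested.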

How the data were processed

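RNA was from separate mice per genotype, and p-values measure the spread between these samples. Per the labels and the methods, Trisure RNA was sequenced by Illumina as single-end reads, IS and caput in 1 run and testis in another, aligned to mm10, and uniquely mapped reads were counted on RefSeq genes with Subread 1.5.1. The authors deposited raw counts per gene and sample, without normalization, for 23337 genes. The labels and the paper name different TruSeq kits, and the strand setting is not given in the sources used here.

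Each comparison was fitted on all its genes in R 4.3.3 with edgeR 4.0.16 (filterByExpr defaults of 10 counts and 15 in total, TMM, robust quasi-likelihood test, Benjamini-Hochberg adjustment). IS, caput and testis were each fitted alone, and segments and their interaction on the 20 epididymal samples. Members below the filter had exact permutation tests on log2(CPM + 0.5) in SciPy 1.17.1. The members and lists were chosen with earlier results of these data known. From each list the text names up to 3 passing genes per direction with the largest change, and for each member with a mean of at least 10 counts the 3 genes of highest Pearson correlation. The gene altered in the knock-in line and 2 listed genes are not reported here. The fits were tested on simulated data. The authors' ROTS test was not run, and limma 3.58.1 with voom and DESeq2 1.42.0 were alternatives, beside other scaling, filters, a replicate block and leaving out each sample. Deviations of same-numbered IS and caput samples correlated between -0.002 and 0.17 in WT and between -0.10 and 0.20 in ArKI mice. Samples of unlike number were not compared, so this cannot decide whether the numbers pair samples by mouse. The main fits did not pair them. Locations and promoters are from RefSeq on GRCm38.p6, in which 7 of 8 members had a promoter. Figures were drawn with matplotlib 3.10.9.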

Additional observations from a re-analysis of the deposited data

Results flagged for a closer look

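Among 24 groups of 5 samples checked, of which chance alone would mark about 1.2, 2 had a sample standing apart. Lhx1 in WT caput replicate 5 was at 0.708 CPM, next to 0.368 CPM in the nearest sample of its group, a matter of 6 counts against 3. Emx2 in WT IS replicate 2 was at 95.2 CPM, with the other WT IS samples between 103 and 106 CPM, and every ArKI IS sample was higher than all of them.

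The genotype effect differed between the segments for Pax2, where the effect in the caput minus that in the IS was -0.64 on the log2 scale (SE 0.17, adjusted p = 0.013). For Lhx1 it was -2.44 (SE 0.75, adjusted p = 0.026), at 0 to 17 counts a sample, and this call was lost without WT caput replicate 5 (adjusted p = 0.071) or ArKI caput replicate 4 (adjusted p = 0.060).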

How the results depend on the processing

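Calls of the members kept their side of the threshold in most alternatives. Of the 366 tested member values computed with 1 sample left out, 14 changed the call and 14 the sign, and of 190 under the other settings, 1 changed the call and 2 the sign. Testis genes that passed numbered 311, 467 with every gene of at least 1 count kept, and 186 to 389 when 1 sample was left out, lowest without WT testis replicate 3. Members passing the interaction numbered 2, but 1 (Pax2) when every sample needed 10 counts, which removes Lhx1 from the fit, and 1 to 3 when 1 sample was left out. The same filter removes Nkx6-1 from the IS fit, leaving 2 of 3 members passing there (Pax2 and Emx2), and leaves 3 of 4 passing between segments in each genotype, without Lhx1. With every gene of at least 1 count kept, 5 members passed between the WT segments. The member added was Foxa1, on 0 counts in each WT IS sample and 1 to 2 in each WT caput sample.

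Some signs turned where the change was near 0. For Sp6 in the IS limma gave 0.012 and leaving out a sample -0.27 to 0.22. Pax2 in the caput ran from -0.013 to 0.13 when a sample was left out. In the testis scaling by library size only gave 0.0017 for Pax2, and leaving out a sample gave -0.11 to 0.14 for Pax2, -0.088 to 0.11 for Lhx1, -0.094 to 0.063 for Emx2, -0.20 to 0.17 for Nkx6-1 and -0.41 to 0.25 for Sp6. The lower Lhx1 level in the WT caput was also lost by limma (adjusted p = 0.060). The Pax8 and Emx2 interactions, which did not pass, passed without 1 of 3 samples each, with values of 0.22 to 0.34 and -0.26 to -0.18. Spearman in place of Pearson kept 5 of the 15 genes most like a member. The causes were not tested.

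With the replicate number as a block, 3 members passed in the IS, 2 in the caput, 0 in the testis, 4 in each segment comparison and 2 in the interaction, and no call changed. In the ArKI against WT comparisons this block joined different mice that only share a number, so nothing is read from it there. Depth limits Lhx1, Foxa1, Foxa2 and the low side of Nkx6-1 and Sp6, which rest on few counts.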
